A study of Mus musculus with 4 samples.

Results

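The tumor necrosis factor (TNF) superfamily was followed in the chromatin of T cells from mouse colorectal tumors and the adjacent cecum. Its members were taken by gene symbol: all protein-coding genes of the mouse RefSeq gene table whose symbol starts with Tnfrsf or Tnfsf and a digit, with Tnf, Lta and Ltb added. This gave 34 of 21887 protein-coding genes by a rule that uses names alone. The level of a gene is the number of ATAC fragments with an end in the gene span or the 5 kb on either side, scaled to 1000000 fragments of the cells counted (FPM). It measures how open the chromatin is at the gene, not how much RNA the gene makes.

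Ligands of this superfamily are mostly trimers on the cell surface, and their receptors recruit TRAF adaptors or death domain proteins that lead to NF-kappaB, MAP kinase or caspase signalling. On T cells several of the receptors act as costimulators after the T cell receptor has been engaged. OX40 (Tnfrsf4), 4-1BB (Tnfrsf9) and GITR (Tnfrsf18) are known as surface markers of activated and regulatory T cells (Treg) in tissues and tumors, and TNF and the lymphotoxins are effector cytokines of the same family.

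The study sorted T cells 4 weeks after AKP colon cancer organoids had been injected into the wall of the cecum of mice. Nuclei of tumor T cells and of T cells from the tumor-free cecum beside it went through a joint ATAC and RNA assay. There was 1 ATAC library from each tissue. Both libraries thus come from tumor-bearing mice. The number, age and genotype of these mice are not given in the sources used here. Each cell carries a deposited label given from the RNA of the same nuclei, and 17 labels occur. The 16 labels with at least 50 cells in both libraries were 2 Treg labels named for Il10 expression (IL-10+ and IL-10-), 6 other CD4 labels, 4 CD8 labels, 2 innate-like labels and 2 gamma-delta labels (Cytotoxic gdT and Rorgt gdT). PD1+ CD4 cells numbered 616 in the tumor and 14 in the cecum and were described in the tumor alone.

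The cecum library held 66399623 fragments, 66.2% of them in 7155 labelled cells, and the tumor library held 96644537, 64.3% of them in 8466 labelled cells. The median labelled cell had 4374 and 5846 fragments, and 84 labelled barcodes occurred in both libraries. Over the labels, cecum PD1+ CD4 left out, a list of 6 T cell genes summed to 770 to 1042 FPM, 6 B cell genes to 137 to 226, 6 myeloid genes to 155 to 262 and 10 epithelial genes to 84.0 to 202. Foxp3, the lineage factor of Treg, had 97.3 and 102 FPM in the Treg labels of the cecum, where the median label had 35.8, and 76.0 and 79.2 in those of the tumor, where it had 28.6. With 1 library for each tissue there was no replicate and no test. Ranges in parentheses after a log2 ratio are exact 95% intervals that cover counting error alone, and a difference between tissues cannot be told apart from one between libraries. A member was called different when the ratio of FPM + 1 was at least 1.5-fold in the same direction in both libraries, with at least 50 fragments over both sides in each.

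Levels per kb of window differed widely among the members. The window of a short gene is mostly flank, and the order per kb differs from the order by FPM. By FPM, Tnfrsf1b had 311 and 301 against 118 and 115 for Tnf, and 4-1BB had 216 and 206 against 115 and 119 for GITR. Among TNF, the lymphotoxins and their receptors, the highest level per kb was that of Tnf itself, with 9.34 FPM per kb in the cecum and 9.12 in the tumor. The lowest of that group was Tnfrsf1a, the death domain receptor for TNF, with 3.83 and 3.55 FPM per kb. Tnf, Lta and Ltb lie side by side on chromosome 17, their windows overlap, and all 3 had the same richest 500-base tile at chr17:35200501-35201000 (mm10), so their levels are not independent of each other.

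Among the costimulatory receptors, GITR was at the top with 9.18 and 9.47 FPM per kb, and the HVEM gene Tnfrsf14 at the bottom with 1.34 and 1.45. 4-1BB had 6.0 and 5.72 FPM per kb, and OX40 had 3.13 and 3.10. The GITR and OX40 genes are neighbours on chromosome 4 and their windows overlap. Among the ligands of these receptors, which antigen-presenting cells or activated T cells make, Tnfsf14 (LIGHT) was highest in the cecum with 2.73 FPM per kb and Tnfsf9 (4-1BB ligand) in the tumor with 3.03, below GITR, 4-1BB and OX40 but above HVEM, while Tnfsf18 (GITR ligand) had 0.0904 and 0.0975.

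In the TRAIL and RANK group the receptor gene Tnfrsf26 led in the cecum with 2.38 FPM per kb and the TRAIL gene Tnfsf10 in the tumor with 2.51. Tnfrsf11b, which encodes the RANK ligand decoy osteoprotegerin, was the least open member of the whole superfamily, with 15 fragments of cecum cells and 52 of tumor cells. In the group of BAFF and APRIL, survival factors for B cells, Tnfsf13 (APRIL) had 5.03 and 4.80 FPM per kb and Tnfsf13b (BAFF) had 0.284 and 0.380. Tnfrsf12a, the receptor of TWEAK, led the remaining members with 8.65 and 8.26 FPM per kb, and the lowest of them were Tnfrsf21 in the cecum with 0.106 and Tnfrsf19 in the tumor with 0.116.

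Several windows hold other genes, so that part of the level belongs to chromatin shared with them. The richest tile of Tnfrsf17 held 76.8% and 77.6% of its window's fragments and lies in Snx29, that of Tnfsf12 and Tnfsf13 lies in Senp3, that of Tnfrsf12a in Thoc6 and Hcfc1r1, and that of Tnfrsf25 in Espn, with 45.6% and 46.7%. Of the 27 members with a start site in the RefSeq promoter table, 13 had their richest tile within 500 bases of a start.

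**Figure D1:**
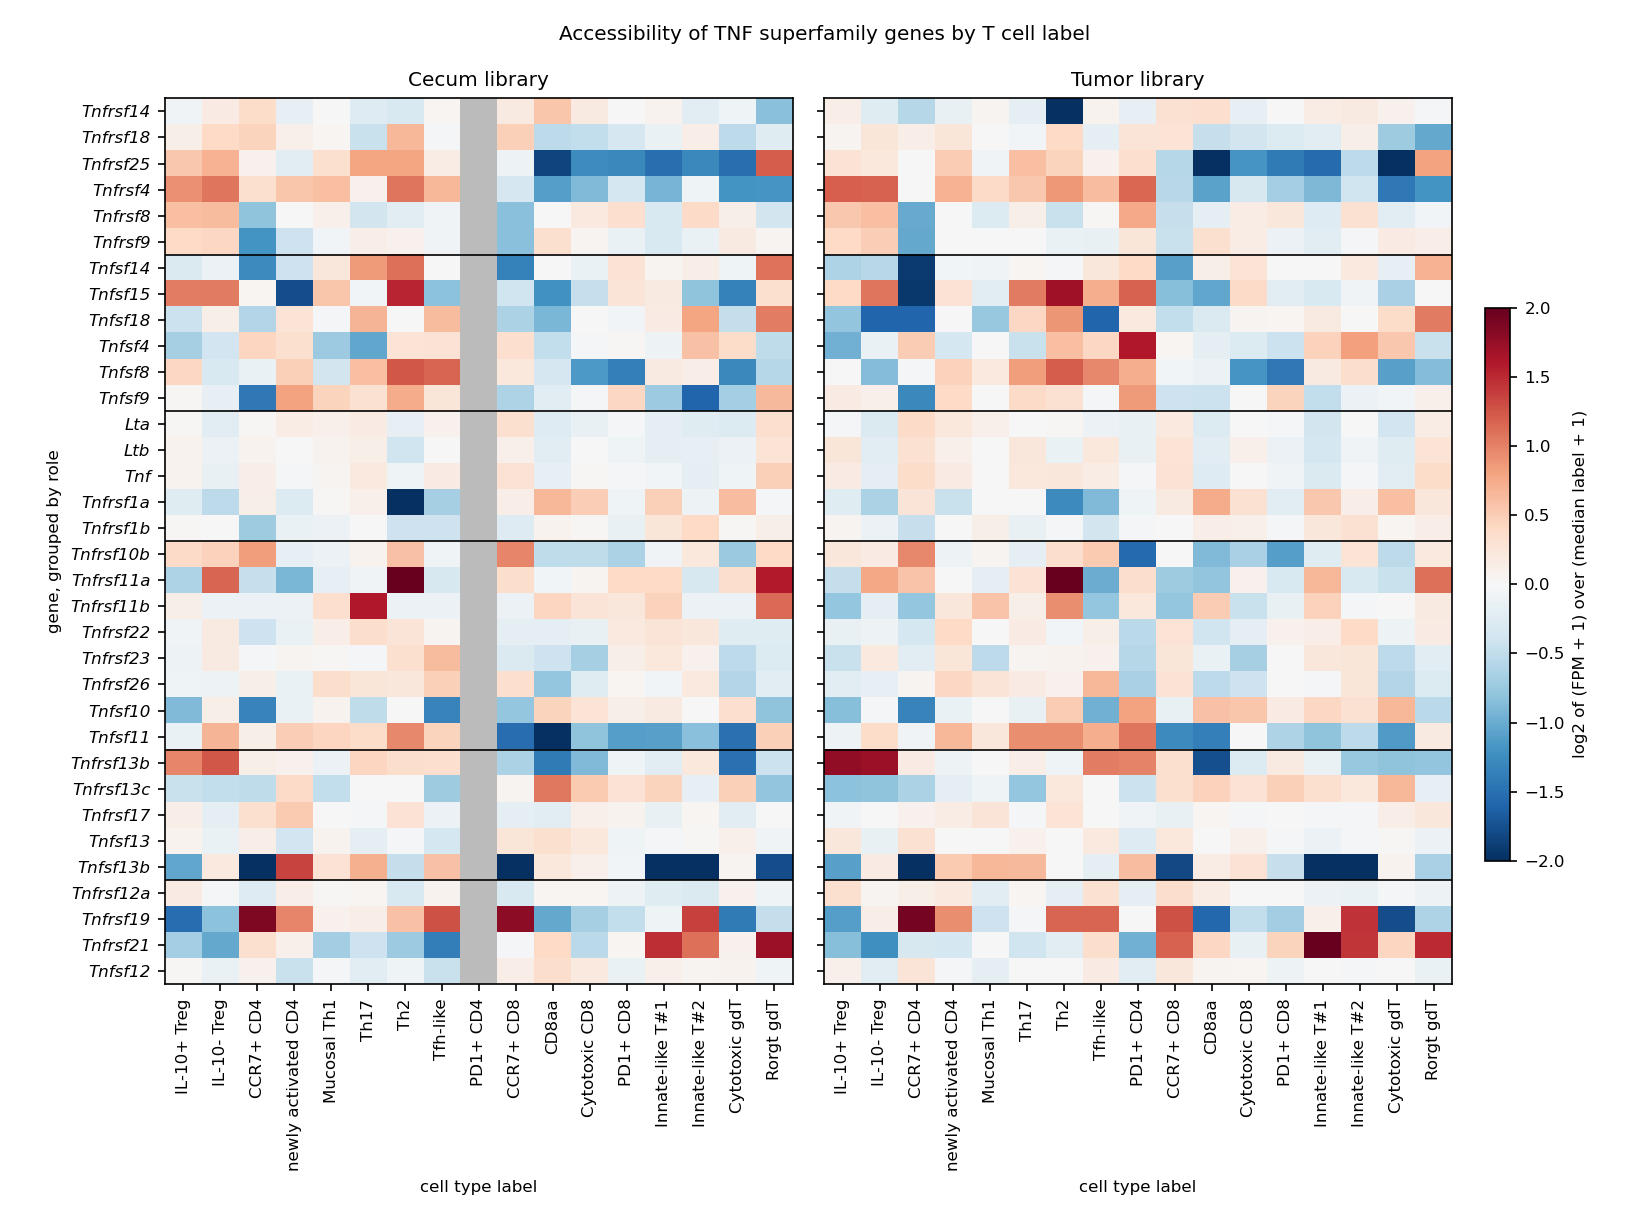
Colour shows the log2 ratio of each gene's FPM + 1 to that of its median label, with genes in rows grouped by role and T cell labels in columns, the cecum library on the left and the tumor library on the right (grey: PD1+ CD4, 14 cells in the cecum). Tnfrsf4 and Tnfrsf13b were red in both Treg columns, Tnfrsf11a was dark red in Th2, and Tnfrsf25 was blue in the CD8aa and Cytotoxic gdT columns, with the same pattern in both libraries. In the cecum Tnfrsf4 was as red in Th2 (80.9 FPM) as in IL-10- Treg (81.3).

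The pattern over labels was compared between the libraries for the 33 members with enough fragments. The label with the highest level was the same in both for 15 of them (45.5%), where the share over all 17338 genes that passed was 26%. Tnfsf15 and Tnfsf18 are among the 15, but had too few fragments to order the labels and dropped out at a minimum of 200 fragments. Pearson's r between the 16 label levels of the cecum and those of the tumor, which share labels but no library, had a median of 0.80 over the members (0.22 to 0.95) and of 0.44 over all genes. Over 10 alternatives of processing, the same label led Tnfrsf11a and Tnfrsf25 in both libraries in all, and the other 13 in 4 to 8. Only for Tnfrsf11a among the 15 did the 95% interval of the lead over the next label lie above 0 in both libraries.

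Tnfrsf11a encodes RANK, the receptor of RANK ligand. Its level was highest in Th2 cells, with 63.3 FPM in the cecum and 70.6 in the tumor, against 31.0 and 26.3 in Rorgt gdT, the next label in both. The median label had 9.66 and 10.9 FPM. The lead over the next label was 1.03 (0.40 to 1.64) and 1.42 (0.74 to 2.08) on the log2 scale, and Th2 kept the first place under all 10 alternatives of processing. At the gene's start (chr1:105780501-105781000) Th2 cells had 10.5 and 18.2 FPM and the other labels together 2.56 and 3.37. The Th2 label was small, with 90 and 58 cells, and 6 and 8 fragments stood behind the Th2 values of that tile.

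Among the 16 labels Th2 was also the leading label of 4 further members in both libraries. Of all genes Th2 led 3.14% in both. With PD1+ CD4 cells added to the labels, Th2 no longer led Tnfsf8 or Tnfsf11 in both libraries. For Tnfsf8, the CD30 ligand, Th2 had 153 FPM in the cecum and 148 in the tumor, followed by Tfh-like cells with 144 and 125, and PD1+ CD8 cells were lowest with 24.2 and 22.8. The CD30 ligand was thus several times more open in these helper cells than in PD1+ CD8 cells of either tissue, while Th2 and Tfh-like cells did not differ beyond counting error. For Tnfsf11, the RANK ligand, Th2 had 96.7 and 86.6 FPM, and CD8aa cells were lowest with 7.89 and 16.8. The next labels of Tnfsf11, IL-10- Treg with 80.0 in the cecum and Th17 with 86.3 in the tumor, were within counting error of Th2. The TL1A gene Tnfsf15 reached 8.79 and 11.4 FPM in Th2 and had a median of 2.41 and 2.74, at counts too low to order the labels. For GITR the Th2 level was 190 FPM in the cecum and 169 in the tumor, the median 120 and 126, and the lowest label CD8aa with 83.1 in the cecum and Rorgt gdT with 62.6 in the tumor. The next label of GITR, CCR7+ CD8 with 168 and 155 FPM, was within counting error of Th2. With the gene span alone, within 1 kb of gene ends or with 50 kb on each side, Th2 no longer led GITR in both libraries. The tile with the largest lead of Th2 at GITR, chr4:156030501-156031000, lies 4.43 kb past the start and outside the gene span. It had 42.2 against 9.81 FPM in the other labels of the cecum. In the tumor it had 41.0 against 16.5, with CCR7+ CD8 close to Th2 at 37.2.

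Among the 16 labels, which leave out PD1+ CD4 cells, the CD30 gene Tnfrsf8 and the 4-1BB gene Tnfrsf9 were highest in IL-10- Treg in both tissues. PD1+ CD4 cells of the tumor had more CD30, 179 FPM, and less 4-1BB, 232. CD30 had 145 FPM in IL-10- Treg and 142 in IL-10+ Treg of the cecum, a median of 93.5 and its lowest value, 52.0, in CCR7+ CD8. In the tumor it had 160 and 154 FPM in the same Treg labels, a median of 104 and 52.1 in CCR7+ CD4. 4-1BB had 284 and 282 FPM in IL-10- and IL-10+ Treg of the cecum, with a median of 213, and 275 and 258 in those of the tumor, with a median of 195. The lowest 4-1BB level was that of CCR7+ CD4 in both tissues, 92.2 and 95.9 FPM. The 2 Treg labels stood together at the top of the 16 for both genes, and their order between themselves was within counting error. In the cecum the first place went to CD8aa for 4-1BB with the gene span alone and to Innate-like T#2 for CD30 with 50 kb on each side.

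OX40 had 81.3 FPM in IL-10- Treg of the cecum and 80.9 in Th2, and 86.1 and 84.7 in IL-10+ and IL-10- Treg of the tumor. Its median was 38.0 and 33.1 FPM, and Cytotoxic gdT was lowest with 16.0 and 13.1. The upper end of OX40 held CD4 labels in both tissues. Tnfrsf25, the receptor of TL1A, was highest in Rorgt gdT with 165 and 158 FPM in cecum and tumor, with medians of 70.8 and 88.1. The lowest labels for Tnfrsf25 were CD8aa with 19.0 in the cecum and Cytotoxic gdT with 18.6 in the tumor. Its richest tile, chr4:152120501-152121000 in Espn, had 89.7 against 26.4 FPM in the cecum and 71.5 against 27.1 in the tumor for Rorgt gdT over the other labels, but newly activated CD4 cells of the tumor were level with it at 70.7. Inside the Tnfrsf25 span, at chr4:152117501-152118000, the values were 15.3 against 2.06 and 12.7 against 1.5 FPM. Rorgt gdT led Tnfrsf25 under all 10 alternatives, and its lead over the next label was 0.42 (0.05 to 0.81) in the cecum but 0.20 (-0.03 to 0.42) in the tumor. The GITR ligand gene Tnfsf18 was also highest in Rorgt gdT, at 4.62 and 5.17 FPM, from few fragments.

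The TNF receptors were led by different labels. Tnfrsf1a had 126 FPM in CD8aa and 122 in Cytotoxic gdT of the cecum, 123 and 111 in the tumor, and was lowest in Th2 with 17.6 and 29.6. Tnfrsf1b, the TNF receptor best known on Treg and activated T cells, ranged from 189 FPM in CCR7+ CD4 to 407 in Innate-like T#2 of the cecum and from 211 to 359 in the same labels of the tumor. HVEM was highest in CD8aa, 39.4 and 36.7 FPM, with a weak likeness of the libraries (r of 0.27 over the 16 labels). Among the 16 labels the OX40 ligand gene Tnfsf4 was highest in Innate-like T#2, with 19.8 and 23.9 FPM, but PD1+ CD4 cells of the tumor had more. The receptor gene Tnfrsf26 had 101 and 119 in Tfh-like cells. For Tnfsf4 and Tnfrsf26 the lead over the next of the 16 labels was within counting error in both libraries. Tnfrsf19, the orphan receptor TROY, was highest in CCR7+ CD4, 44.4 FPM in the cecum and 42.5 in the tumor, against medians of 11.4 and 10.8. Its start tile, chr14:61046501-61047000, had 16.8 against 3.96 FPM and 17.8 against 3.62 for CCR7+ CD4 over the other labels, though CCR7+ CD8 was higher there in the cecum, with 19.7. Over the whole Tnfrsf19 window the next labels were CCR7+ CD8 with 41.7 in the cecum and Innate-like T#2 with 30.5 in the tumor, and the lead over either was within counting error.

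**Figure D2:**
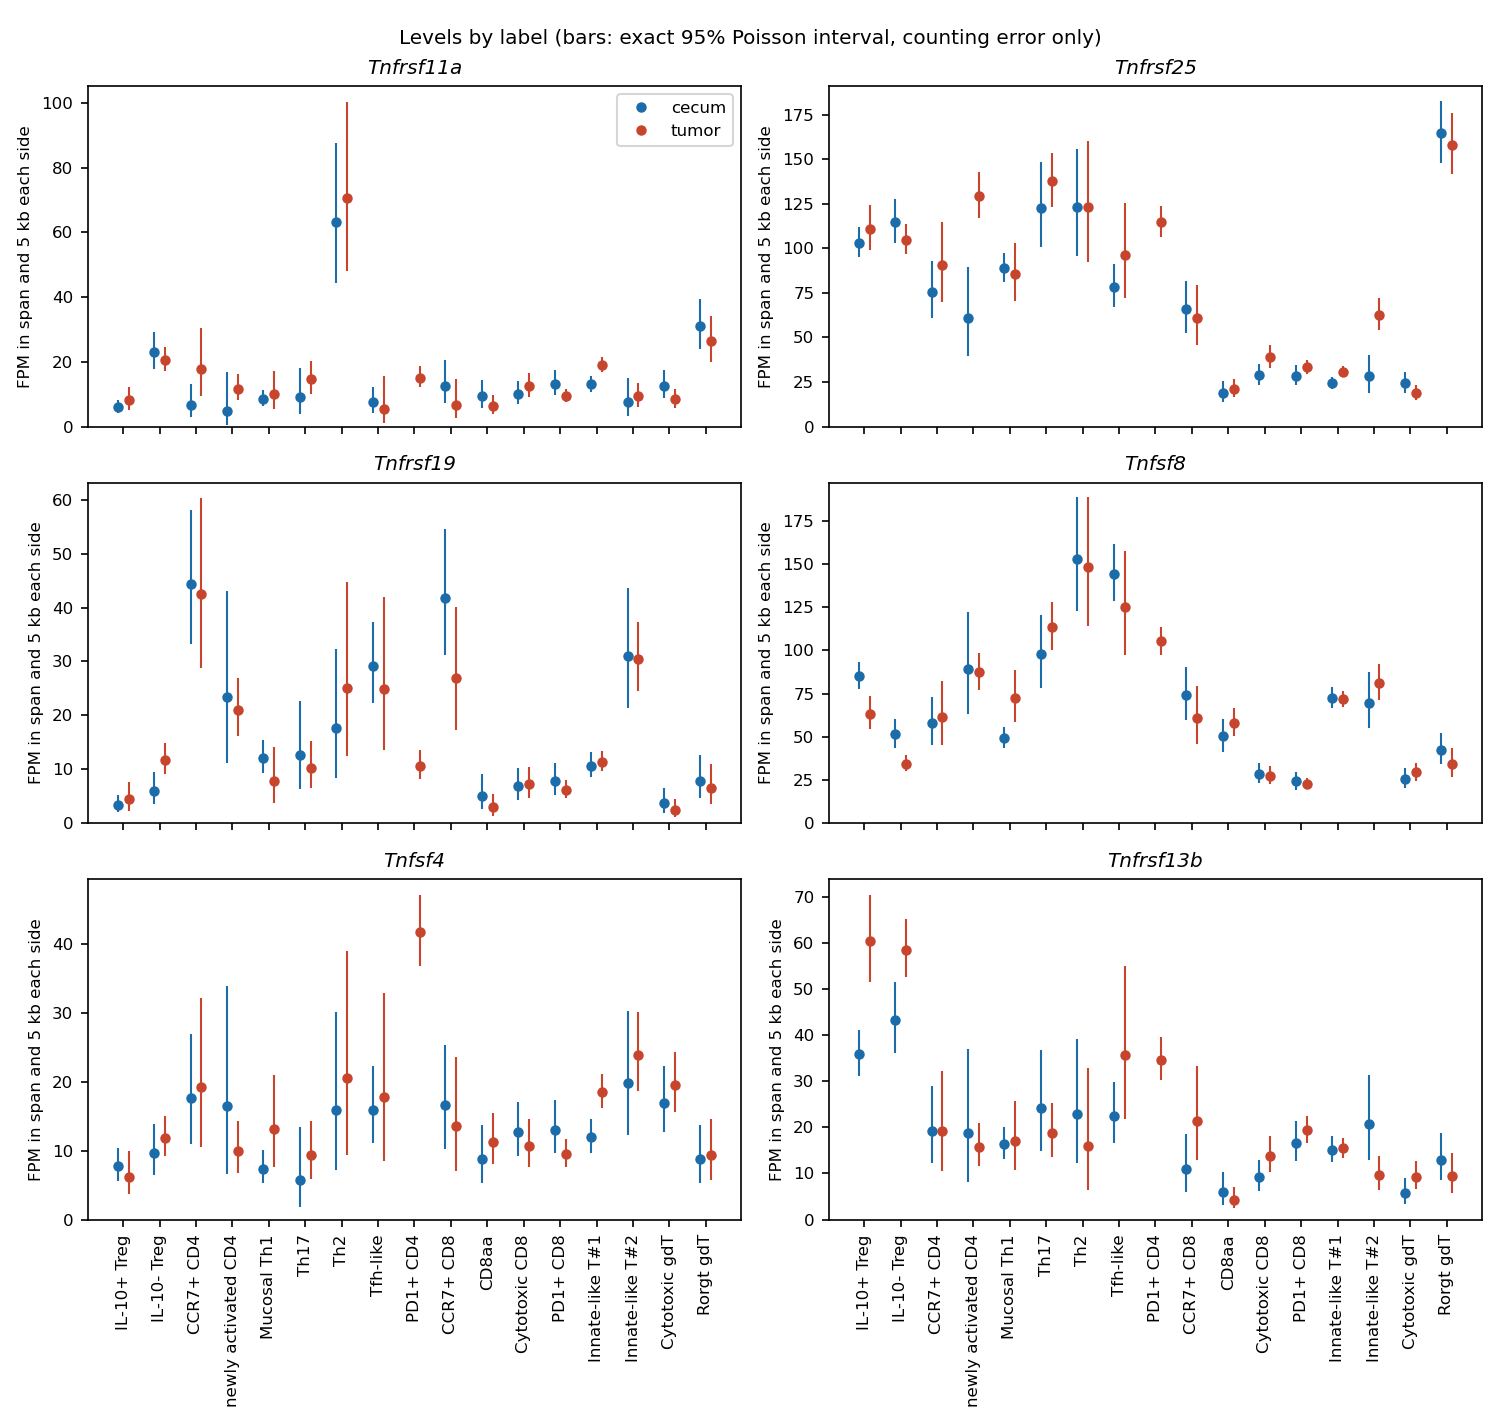
Points show the FPM of 6 genes in each T cell label with exact 95% Poisson intervals, the cecum and the tumor library in separate colours. Tnfrsf11a stood out in Th2 (63.3 and 70.6 FPM). Tnfrsf25 was highest in Rorgt gdT (165 and 158), in the tumor within counting error of Th17. Tnfrsf19 was highest in CCR7+ CD4 (44.4 and 42.5) with CCR7+ CD8 (41.7) close to it in the cecum. Among the 16 labels Tnfsf8 was highest in Th2, followed by Tfh-like, with Th17 (114) close to Tfh-like (125) in the tumor. Tnfsf4 stood out in PD1+ CD4 of the tumor (41.7) and Tnfrsf13b in both Treg labels (35.9 to 60.5).

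Treg of both labels were then set against conventional CD4 cells, the sum of CCR7+ CD4, newly activated CD4, Mucosal Th1, Th17, Th2 and Tfh-like cells, to ask which superfamily genes are more open in Treg. PD1+ CD4 cells, nearly all from the tumor, were left out of this sum. Of the 32 members with enough fragments, 2 were at least 1.5-fold higher in Treg in both libraries, CD30 and TACI, and 1 was lower, TROY. Over all 15869 genes, 2.12% were higher and 1.97% lower by the same rule. Tnfrsf11b and Tnfsf18 had too few fragments. The median of the members' log2 ratios was -0.04 and -0.12 in cecum and tumor, beside -0.02 and -0.03 over all genes, and 11 members were higher and 18 lower in both libraries at any size, beside 28.0% higher and 38.7% lower over all genes. In windows reaching 50 kb past both gene ends neither CD30 nor TACI was called, at 2-fold none of the 3 was, and CD30 also lost the call when levels were averaged over cells.

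Tnfrsf13b, which encodes the BAFF and APRIL receptor TACI and is best known on B cells, had 38.5 FPM in Treg and 19.0 in conventional CD4 cells of the cecum. Tumor Treg had 59.2 FPM against 18.4. The log2 ratio was 1.02 (0.76 to 1.28) in the cecum but 1.68 (1.42 to 1.95) in the tumor, or 2.02-fold and 3.21-fold. The Treg labels took the first places, with 43.3 FPM in IL-10- Treg and 35.9 in IL-10+ Treg of the cecum and 58.6 and 60.5 in those of the tumor, against medians of 17.7 and 16.5. The 6 B cell genes summed to 149 to 155 FPM in the Treg labels and 137 to 226 in the conventional ones, and 0 of the 5 that passed were called. The part of B cells in the TACI levels was not tested.

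CD30, a receptor of activated lymphocytes, had 143 FPM in Treg against 89.1 in conventional CD4 cells of the cecum and 158 against 99.3 in the tumor. This gave log2 ratios of 0.68 (0.56 to 0.81) and 0.67 (0.55 to 0.80), of like size in both tissues. PD1+ CD4 cells of the tumor, where CD30 was more open than in Treg, are not part of the conventional class. The ratio with them included was not computed. They held 6143256 fragments, more than any conventional label of the tumor, so including them would lower the tumor ratio of CD30. TROY was lower in Treg, with 4.25 against 20.1 FPM in the cecum and 9.37 against 18.3 in the tumor, at log2 ratios of -2.24 (-2.79 to -1.73) and -0.96 (-1.37 to -0.57). CCR7+ CD4, where TROY was highest, is 1 of the conventional labels.

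The 3 marker receptors were higher in Treg but did not reach the call. 4-1BB had 282 FPM in Treg and 193 in conventional CD4 cells of the cecum, and 270 and 184 in the tumor. Its log2 ratio was 0.55 (0.46 to 0.63) and 0.55 (0.46 to 0.65), or 1.46-fold and 1.47-fold, just under the limit of 1.5. It passed when only fragments within 1 kb of either gene end were counted, at 0.76 and 1.38, and when each label had equal weight. OX40 had 75.7 against 57.2 FPM in the cecum, at 0.40 (0.24 to 0.56), and 85.2 against 55.0 in the tumor, at 0.63 (0.46 to 0.80). GITR had 140 against 127 and 146 against 138 FPM, and its log2 ratio of 0.08 (-0.04 to 0.20) in the tumor was within counting error. The 3 receptors thus differed among themselves. Against the pooled conventional class, 4-1BB and OX40 were apart in both tissues beyond counting error, and GITR had smaller ratios. Single labels came closer for OX40: Th2 of the cecum had 80.9 FPM beside 81.3 in IL-10- Treg. PD1+ CD4 cells of the tumor, left out of the class, were close to tumor Treg for OX40.

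Among the 13 ligands that passed, none was called. In both libraries 10 were lower in Treg, where 38.7% of all genes were, and 1 was higher, the TL1A gene Tnfsf15, with 5.97 against 3.15 FPM in the cecum and 6.09 against 4.54 in the tumor. Tnf, Lta and Ltb are among the 10 lower ones, and their windows overlap, so they do not count independently. Tnfsf12 and Tnfsf13 were higher in the cecum and lower in the tumor, all 4 ratios within counting error. The CD30 ligand had 43.7 FPM in Treg and 95.9 in conventional CD4 cells of the tumor, at -1.13 (-1.31 to -0.95), but 73.6 and 81.0 in the cecum, at -0.14 (-0.29 to 0.01). The classes are sums over labels whose shares differed between the libraries. IL-10- Treg, where the CD30 ligand (Tnfsf8) had 51.3 and 34.5 FPM, gave 34.5% of the fragments of cecum Treg and 68.0% of those of tumor Treg. Of the conventional fragments, Mucosal Th1, at 49.5 and 72.6 FPM, gave 50.4% and 15.5%, and newly activated CD4, at 89.0 and 87.4, gave 4.08% and 35.8%. The part of this mix in the ratios was not tested. BAFF had 10.4 against 18.5 FPM and 16.5 against 24.5, and LIGHT had 32.1 against 43.1 and 29.2 against 41.0. Of the superfamily members with other symbols, 1 of 11 was called, the CD40 ligand gene Cd40lg, which was lower in Treg with 15.8 against 34.1 FPM in the cecum and 12.9 against 32.9 in the tumor. Of the 10 epithelial genes 6 passed and 1 was called, Vil1, with 20.3 against 13.2 FPM in the cecum and 28.6 against 14.7 in the tumor, while the epithelial sums were 102 to 156 FPM over the Treg labels and 84.0 to 167 over the conventional ones. The part of these cells in the results was not tested.

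**Figure D3:**
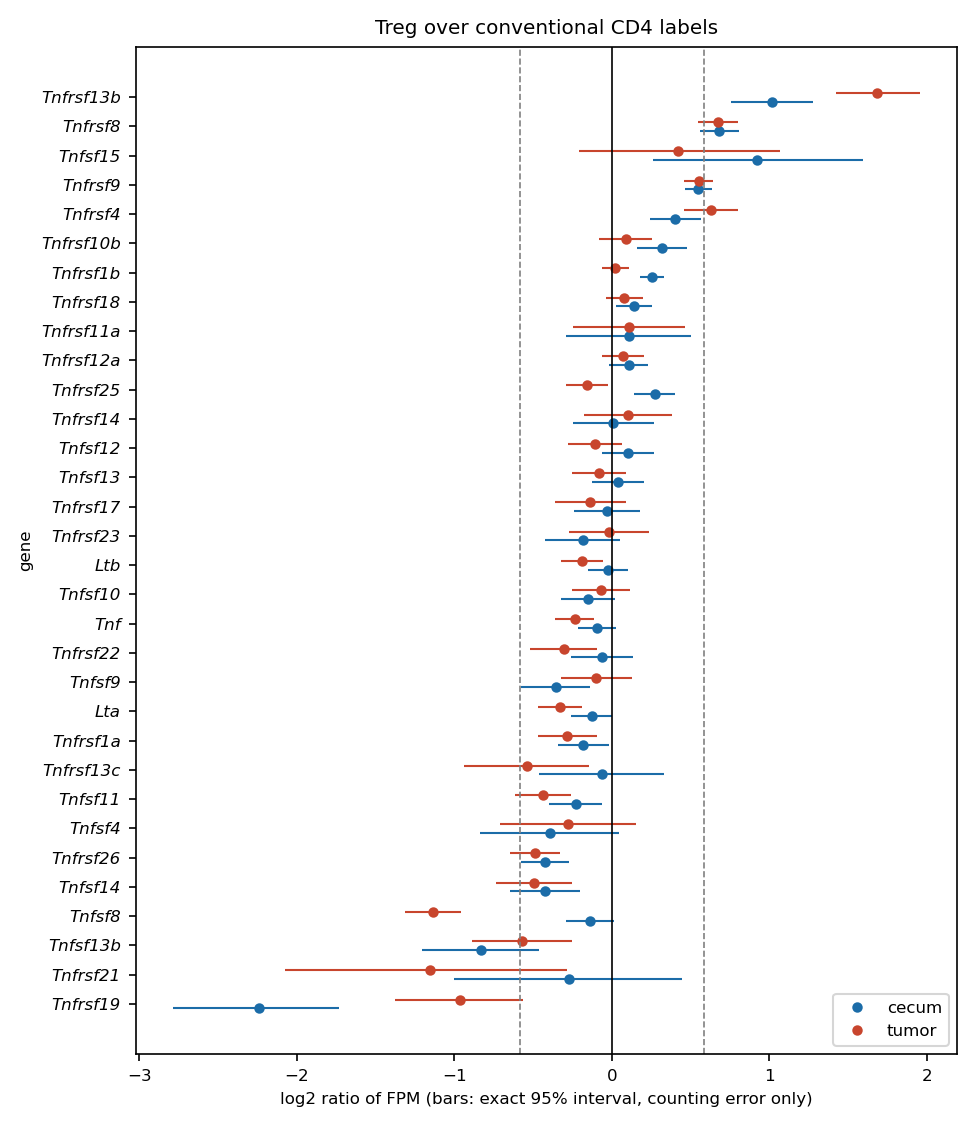
Points give the log2 ratio of FPM in Treg over conventional CD4 cells for the 32 members that passed, with exact 95% intervals of counting error, 1 colour for each library and dashed lines at 1.5-fold. Tnfrsf13b (1.02 and 1.68) and Tnfrsf8 (0.68 and 0.67) lie right of the line in both libraries, Tnfrsf9 (0.55 and 0.55) just inside it, and Tnfrsf19 (-2.24 and -0.96) at the other end.

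Tiles of 500 bases were then compared along the same genes. Here and below, tiles of largest ratio were picked by that ratio from the same counts, and their intervals do not allow for the pick. Tiles of genes outside the superfamily were not counted, so the counts of tiles have no share over all genes beside them. The tile with the largest ratio need not hold much of the difference of the window: that of 4-1BB held 0.527% and 0.618% of its window's fragments. At CD30, 30 of 38 tiles with at least 20 fragments were higher in Treg in both libraries and 5 lower. The start tile, chr4:145315001-145315500, had 23.9 against 13.1 FPM in the cecum and 27.3 against 13.4 in the tumor. The largest ratio was at chr4:145302001-145302500, 12.9 kb into the gene, with 11.7 against 1.62 and 9.14 against 1.79 FPM, at 2.85 (2.10 to 3.68) and 2.35 (1.54 to 3.25). Both Treg labels were the highest of the 16 labels for that tile in both tissues, with 8.78 and 9.90 FPM in the tumor, where PD1+ CD4 cells had 3.74. The CD30 start tile (Tnfrsf8) was also open in Tfh-like cells of the cecum, with 23.9 FPM, and in PD1+ CD4 cells, with 19.7.

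At 4-1BB, 18 of 25 tiles were higher in Treg and 2 lower. Its richest tile, chr4:150924501-150925000, lies between the gene's 2 RefSeq starts and differed little, with 45.5 against 36.4 FPM in the cecum and 38.9 against 33.7 in the tumor. The largest ratio lay past the span, at chr4:150947001-150947500, with 2.18 against 0.573 and 4.10 against 0.359 FPM. At OX40, 14 of 16 tiles were higher and 0 lower. Its start tile, chr4:156013501-156014000, which Sdf4 also overlaps, had 14.5 against 9.74 and 18.4 against 14.5 FPM, and the largest ratio was at chr4:156016501-156017000, with 1.95 against 1.05 and 4.92 against 1.55. At GITR, 8 of 16 tiles were higher and 1 lower. The richest one, chr4:156022001-156022500, lies -4.07 kb from the start, held 36.5% and 32.8% of the window and had 50.7 against 48.1 and 50.5 against 45.3 FPM. Without that tile the GITR window (Tnfrsf18) had 89.5 against 78.9 and 95.2 against 92.4 FPM, at log2 ratios of 0.18 and 0.04. The largest tile ratio, at chr4:156030001-156030500, was 2.64 against 1.72 and 3.28 against 1.79 FPM.

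At TACI, 7 of 10 tiles were higher in Treg and 0 lower. The largest ratio was at chr11:61126001-61126500 on the upstream side of the start, with 2.07 against 0.191 FPM in the cecum and 3.98 against 0.239 in the tumor, from 18 against 2 and 34 against 2 fragments. The richest tile, chr11:61142001-61142500, is 15.5 kb into the gene and had 5.40 against 4.20 and 6.21 against 3.23 FPM. TROY had 2 tiles with enough fragments, and both were lower: chr14:61046501-61047000 at its start had 2.07 against 8.69 FPM in the cecum and 2.81 against 8.01 in the tumor.

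**Figure D4:**
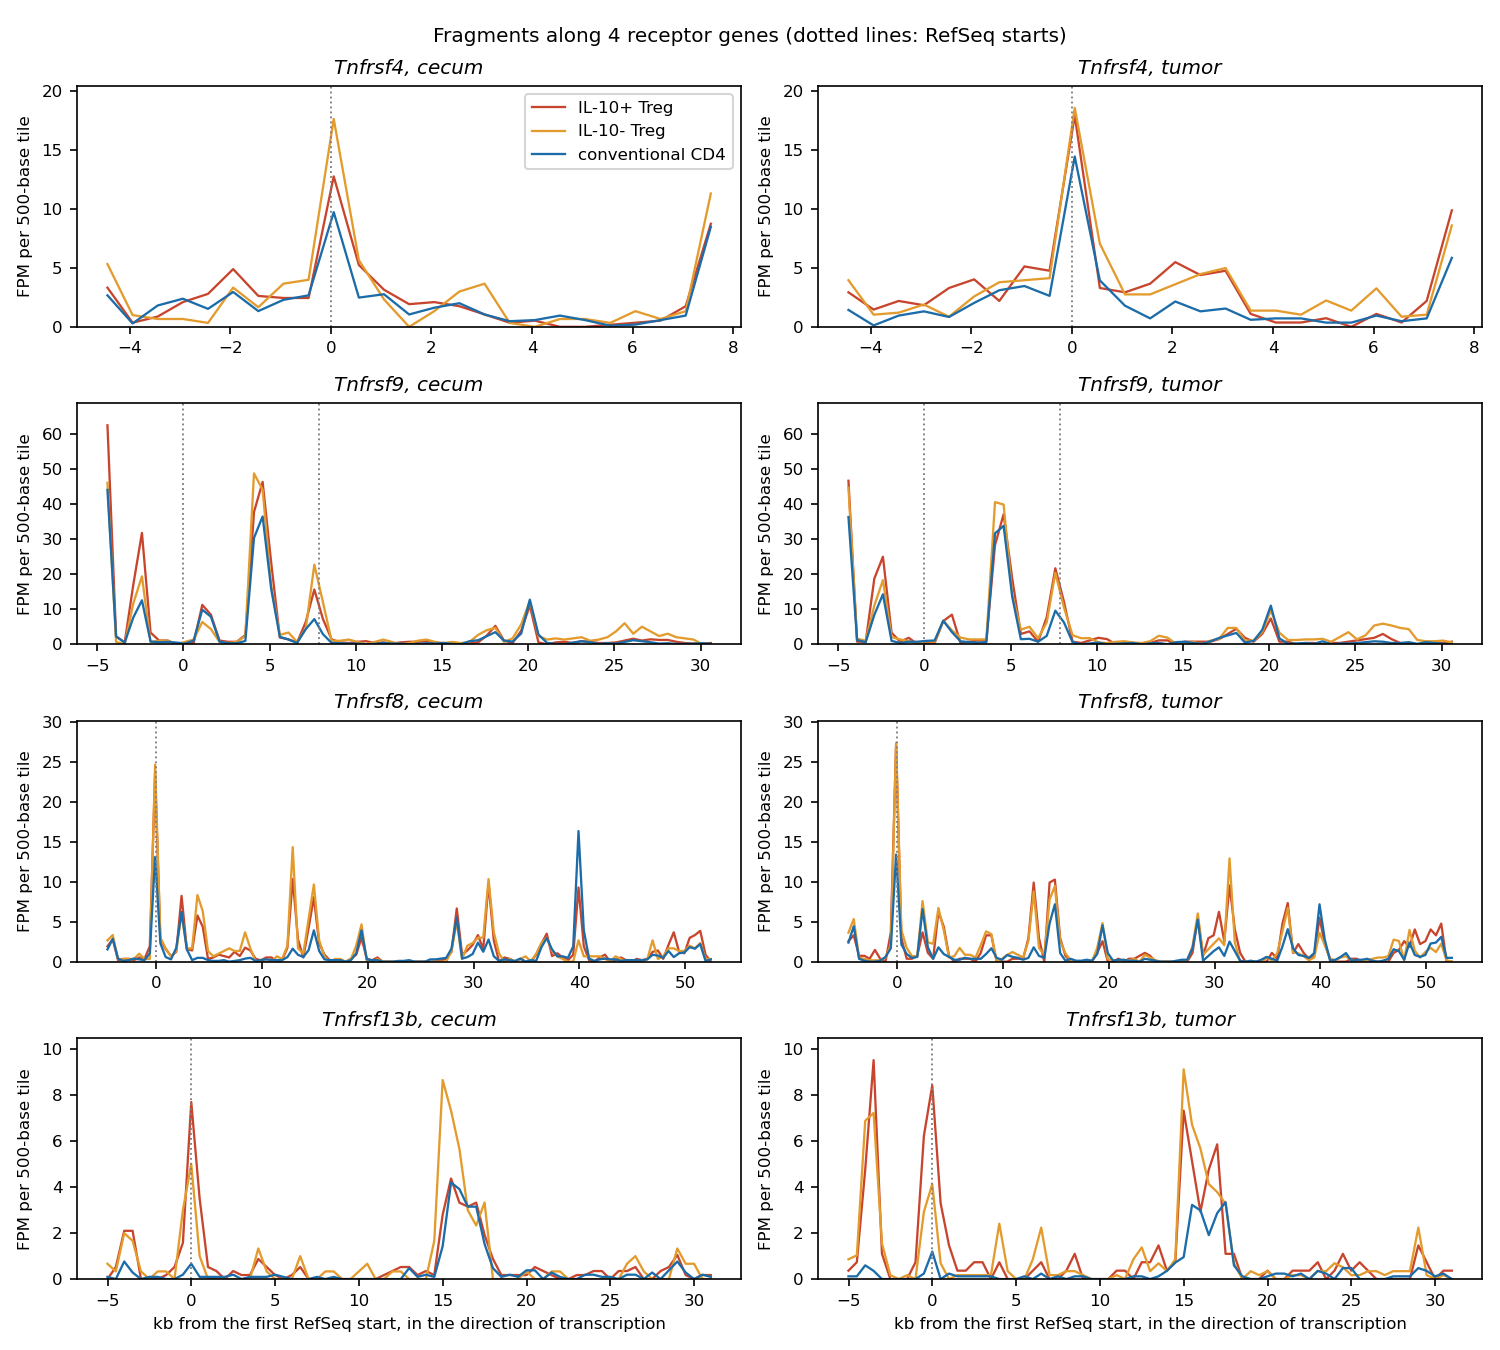
Lines show FPM in 500-base tiles along Tnfrsf4, Tnfrsf9, Tnfrsf8 and Tnfrsf13b for IL-10+ Treg, IL-10- Treg and conventional CD4 cells, against the distance in kb from the first RefSeq start, with the cecum on the left and the tumor on the right. The start of Tnfrsf8 was higher in Treg (23.9 against 13.1 and 27.3 against 13.4 FPM), while the peak between the starts of Tnfrsf9 differed less (45.5 against 36.4 and 38.9 against 33.7).

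The 300 bases at each RefSeq start, 250 before and 50 after it, were also counted, for the 27 members (31 starts) in the promoter table. With at least 20 fragments, 23 starts of 21 genes passed, 3 were called higher in Treg and 0 lower, beside 1.57% and 1.39% of 12921 starts. The 3 were those of CD30, of TACI and the second start of 4-1BB. The CD30 start had 23.0 against 12.7 FPM in the cecum and 25.8 against 12.6 in the tumor, at 0.85 (0.53 to 1.18) and 1.04 (0.70 to 1.39). The second start of 4-1BB had 14.1 against 4.59 and 18.0 against 8.37 FPM, at 1.62 (1.13 to 2.14) and 1.11 (0.69 to 1.54), while its first start had at most 5 fragments on either side. Of the 2 starts of 4-1BB, the second was therefore the open one in these cells, and it separated Treg from conventional cells more than the whole window did. Among labels it was most open in Innate-like T#2, 23.6 and 24.9 FPM, with IL-10- Treg at 20.3 and 17.9 and IL-10+ Treg at 10.9 and 18.3, and its lowest value was 1.68 in CCR7+ CD4 of the cecum. The OX40 start had 6.20 against 5.16 and 8.55 against 6.10 FPM and the GITR start 11 against 11.3 and 9.26 against 10.8, neither of them called.

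The TACI start (Tnfrsf13b) had 6.20 against 0.573 FPM in the cecum and 4.80 against 0.957 in the tumor, from 54 against 6 and 41 against 8 fragments, at 3.44 (2.22 to 4.94) and 2.33 (1.22 to 3.63). By label it had 6.83 and 6.60 FPM in IL-10+ Treg, 5.0 and 3.96 in IL-10- Treg and 1.41 and 1.78 in Tfh-like cells. In CCR7+ CD4, CCR7+ CD8, CD8aa, Cytotoxic gdT, Th2 and Th17 cells no fragment ended there in either library, which allows levels of 0.716 to 6.83 FPM (3 fragments). Outside the Treg labels the highest level of the TACI start was 2.0 FPM, in newly activated CD4 cells of the tumor, and in the labels with the fewest cells the limit of 3 fragments reached the Treg level.

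The bases before the starts that carry these differences are printed 5′ to 3′ on the strand of the gene, up to the base before the start (RefSeq, GRCm38.p6, the assembly behind mm10), with OX40 and the first start of 4-1BB for contrast and the second BAFF start for the comparison of Treg subsets. Capitals mark matches to AP-1 (TGANTCA), kappaB or NFAT (GGAAAA or its reverse TTTTCC) motifs, which were searched on both strands together with RUNX (TGTGGT or ACCACA) and the TATA box (TATAAA or TTTATA).
Tnfrsf8, chr4:145315165-145315414, minus strand: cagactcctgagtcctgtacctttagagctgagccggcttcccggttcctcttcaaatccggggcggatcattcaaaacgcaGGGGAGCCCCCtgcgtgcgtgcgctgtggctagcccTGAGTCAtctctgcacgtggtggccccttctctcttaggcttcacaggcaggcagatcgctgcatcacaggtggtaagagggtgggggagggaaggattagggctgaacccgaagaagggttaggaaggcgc
Tnfrsf9 second start, chr4:150927749-150927998, plus strand: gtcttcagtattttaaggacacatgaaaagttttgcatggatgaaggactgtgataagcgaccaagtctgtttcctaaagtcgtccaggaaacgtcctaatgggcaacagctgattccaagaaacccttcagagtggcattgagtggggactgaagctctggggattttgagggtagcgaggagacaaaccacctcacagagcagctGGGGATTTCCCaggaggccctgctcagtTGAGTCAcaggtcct
Tnfrsf9 first start, chr4:150919905-150920154, plus strand: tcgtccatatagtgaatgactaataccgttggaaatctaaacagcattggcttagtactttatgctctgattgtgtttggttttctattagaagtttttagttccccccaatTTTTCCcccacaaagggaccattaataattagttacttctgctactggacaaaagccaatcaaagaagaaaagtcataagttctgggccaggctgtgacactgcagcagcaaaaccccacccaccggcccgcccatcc
Tnfrsf13b, chr11:61126505-61126754, plus strand: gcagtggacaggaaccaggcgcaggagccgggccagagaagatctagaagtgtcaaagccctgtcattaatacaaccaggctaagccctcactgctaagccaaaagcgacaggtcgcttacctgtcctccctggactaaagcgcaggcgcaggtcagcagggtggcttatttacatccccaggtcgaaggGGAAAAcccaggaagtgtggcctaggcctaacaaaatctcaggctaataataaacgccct
Tnfrsf4, chr4:156013445-156013694, plus strand: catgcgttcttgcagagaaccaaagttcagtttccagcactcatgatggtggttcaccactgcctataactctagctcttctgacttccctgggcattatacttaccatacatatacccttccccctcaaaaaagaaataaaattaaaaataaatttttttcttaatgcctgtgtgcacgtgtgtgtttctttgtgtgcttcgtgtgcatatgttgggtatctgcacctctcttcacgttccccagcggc
Tnfsf13b second start, chr8:10006383-10006632, plus strand: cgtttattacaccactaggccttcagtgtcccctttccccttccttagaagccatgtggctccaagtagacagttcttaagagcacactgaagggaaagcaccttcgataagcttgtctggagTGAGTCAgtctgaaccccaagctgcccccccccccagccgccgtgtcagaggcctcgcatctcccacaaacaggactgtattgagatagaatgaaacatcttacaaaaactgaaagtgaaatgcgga

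The CD30 sequence held an AP-1 match beginning 132 bases before the start and kappaB matches at 168 and 167, which overlap each other. The second start of 4-1BB held an AP-1 match at 15 bases and overlapping kappaB matches at 43 and 42. The first start of 4-1BB had an NFAT match at 138 and TACI one at 60, the second BAFF start had an AP-1 match at 127, and the OX40 sequence had none of the 5 motifs. Over all 32851 promoters of the table, AP-1 matched in 6.75%, kappaB in 7.25%, RUNX in 14.0%, NFAT in 20.4% and the TATA box in 12.4%. Of the members' 31 starts they matched in 5, 4, 3, 9 and 6. A match describes the letters and does not show that a factor binds there.

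IL-10+ Treg were then compared with IL-10- Treg, the division at the centre of the study. Of 30 members with enough fragments, 1 was called higher in IL-10+ Treg, the CD30 ligand, and 3 lower, RANK, BAFF and TRAIL. Over all 14409 genes 0.861% were called higher and 4.36% lower. Tnfrsf11b, Tnfrsf19, Tnfrsf21 and Tnfsf18 had too few fragments. The median of the members' log2 ratios was -0.02 and -0.00 in cecum and tumor, beside 0.01 in both over all genes. Within 1 kb of gene ends BAFF alone of the 4 was called, in the 50 kb windows the other 3, and a minimum of 200 fragments left the CD30 ligand and TRAIL.

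The CD30 ligand gene Tnfsf8 had 85.3 FPM in IL-10+ Treg and 51.3 in IL-10- Treg of the cecum, and in tumor Treg 63.4 against 34.5. The log2 ratio was 0.73 (0.47 to 1.0) and 0.88 (0.58 to 1.18), or 1.66-fold and 1.84-fold. Its largest tile ratio was at chr4:63860001-63860500, 1.03 kb into the gene, with 8.76 against 4.00 and 4.40 against 1.89 FPM. The ligand was thus more open in IL-10+ Treg in either tissue, while CD30 itself was level between the subsets, at 142 against 145 and 154 against 160 FPM.

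RANK had 5.95 FPM in IL-10+ Treg and 23.0 in IL-10- Treg of the cecum, at -1.95 (-2.59 to -1.34), and 8.06 against 20.7 in the tumor, at -1.36 (-2.08 to -0.69). Its ligand Tnfsf11 was not called, with 45.2 against 80.0 FPM and 41.4 against 57.9. BAFF had 6.83 against 17.3 FPM in the cecum and 8.06 against 20.5 in the tumor, at -1.34 (-1.98 to -0.72) and -1.35 (-2.07 to -0.68). Its richest tile, chr8:10006501-10007000, where the second start printed above lies, had 3.50 against 10.7 and 1.83 against 10.9 FPM. TRAIL, a ligand of death receptors, had 41.3 against 83.6 FPM in the cecum, at -1.02 (-1.28 to -0.75), and 36.7 against 65.3 in the tumor, at -0.83 (-1.17 to -0.51).

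At the TRAIL gene (Tnfsf10) 5 of 7 tiles were lower in IL-10+ Treg and 1 higher. The strongest was chr3:27326501-27327000, 9.67 kb past the start, with 1.05 against 13.7 FPM in the cecum and 0.733 against 7.58 in the tumor, at -3.70 (-5.23 to -2.46) and -3.37 (-6.46 to -1.43). Among the 16 labels Th2 cells were highest for that tile, with 28.1 and 31.9 FPM, and IL-10- Treg came next, while PD1+ CD4 cells of the tumor had 13.7. The tile at the start, chr3:27316501-27317000, was less uneven, with 12.6 against 17.7 and 9.90 against 15.2 FPM.

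Over their whole windows the marker receptors were close between the subsets. 4-1BB had 282 and 284 FPM in IL-10+ and IL-10- Treg of the cecum, 258 and 275 in those of the tumor, and OX40 had 72.7 and 81.3, then 86.1 and 84.7. GITR had 131 against 159 FPM, at -0.28 (-0.45 to -0.11), and 133 against 152, at -0.19 (-0.37 to -0.01), uncalled and lower in IL-10+ Treg in both tissues. TACI had 35.9 against 43.3 and 60.5 against 58.6 FPM. Of 6 members under other symbols that passed, 1 was called, Cd40, with 8.58 against 16.0 FPM in the cecum and 10.3 against 21.0 in the tumor. In the same comparison the B cell gene Ebf1 was lower in IL-10+ Treg, with 18.7 against 30 and 20.9 against 33.9 FPM, as was the myeloid gene Cebpa, with 14.7 against 35.0 and 13.2 against 25.0, each the 1 gene called of the 4 that passed in its list. The summed lists were 149 to 155 FPM for B cells and 177 to 202 for myeloid cells over the Treg labels. The epithelial sum was lower in IL-10+ Treg, with 102 against 134 FPM in the cecum and 104 against 156 in the tumor, in the same direction as RANK, BAFF and TRAIL, and the 3 epithelial genes that passed were uncalled, with median log2 ratios of -0.57 and -0.35. The part of these lists in the results was not tested.

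At the starts, 23 of 31 passed, and 0.806% of 11780 starts were called higher and 2% lower over all genes. The Tnf start was called higher in IL-10+ Treg, with 8.58 against 4.33 FPM in the cecum and 7.70 against 4.31 in the tumor, at 0.99 (0.08 to 1.99) and 0.84 (-0.07 to 1.73), the last within counting error. Both BAFF starts (Tnfsf13b) were called lower, the second with 3.68 against 11.7 and 2.57 against 12.6 FPM. They overlap each other. The second start of 4-1BB was uncalled but lower in IL-10+ Treg of the cecum, with 10.9 against 20.3 FPM, at -0.90 (-1.44 to -0.37). In the tumor it was level, with 18.3 against 17.9 FPM, at 0.03 (-0.48 to 0.53).

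**Figure D5:**
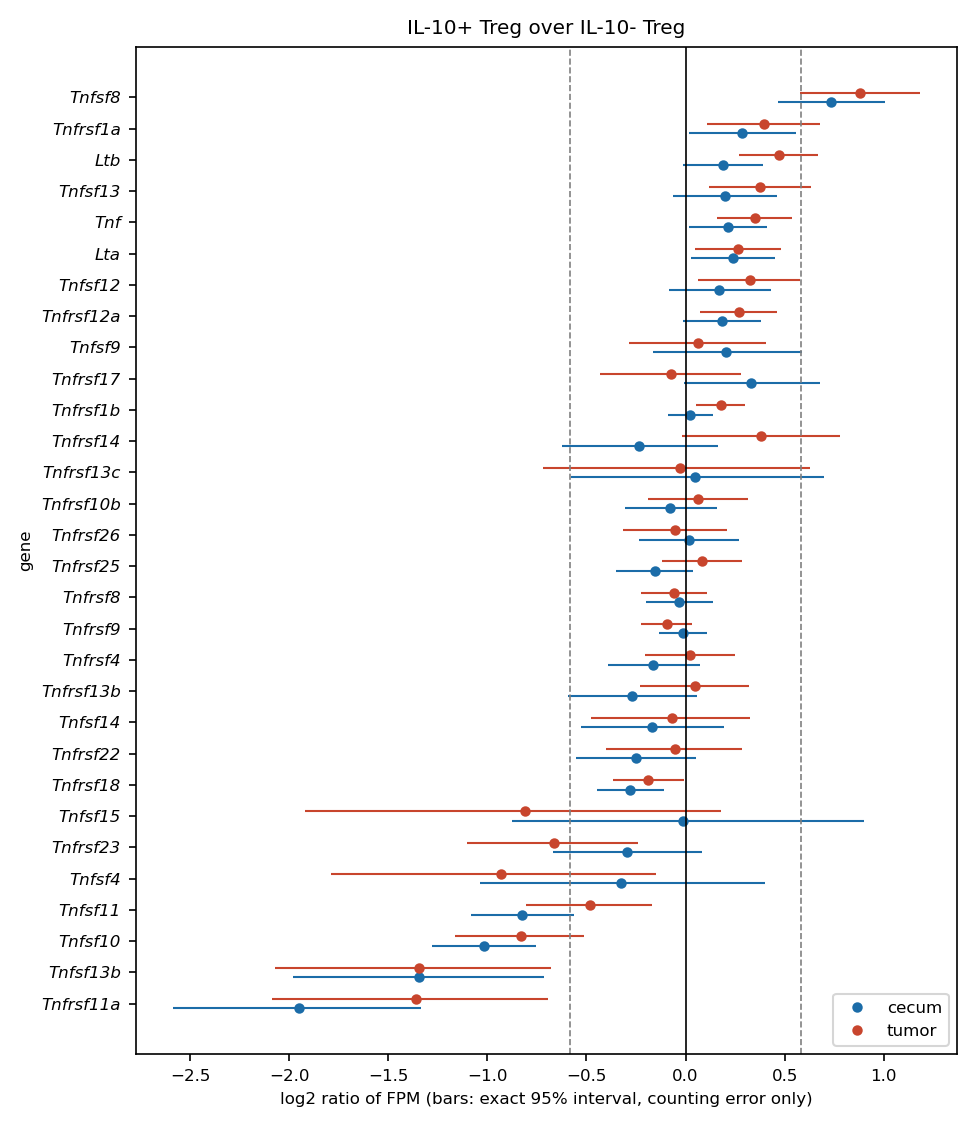
Points give the log2 ratio of FPM in IL-10+ over IL-10- Treg for the 30 members that passed, with exact 95% intervals of counting error, 1 colour for each library and dashed lines at 1.5-fold. Tnfsf8 (0.73 and 0.88) lies right of the line in both libraries, and Tnfsf10 (-1.02 and -0.83), Tnfsf13b (-1.34 and -1.35) and Tnfrsf11a (-1.95 and -1.36) lie left of it.

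PD1+ CD8 cells, named for the inhibitory receptor PD-1, were compared with Cytotoxic CD8 cells. Of 30 members, 1 was called higher and 0 lower, beside 1.81% and 0.699% of 14445 genes. Tnfrsf23, a decoy receptor for TRAIL in mice, had 31.6 against 18.0 FPM in the cecum, at 0.81 (0.35 to 1.29), and 30.3 against 18.6 in the tumor, at 0.70 (0.32 to 1.1). It kept the call under 5 of 11 alternatives. Its start tile held 68.7% and 65.1% of the window. Several uncalled receptors and ligands had ratios of 1 direction in both tissues: Tnfrsf1a had 74.4 against 112 and 62.5 against 90.3 FPM, and the 4-1BB ligand Tnfsf9 had 44.7 against 32.5 and 47.8 against 34.6. 4-1BB itself was lower in PD1+ CD8 cells, with 195 against 222 and 180 against 218 FPM, at -0.19 (-0.34 to -0.04) and -0.28 (-0.40 to -0.15). GITR had 94.7 against 85.3 and 105 against 98.8 FPM.

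The same Treg labels were compared between the tumor and the cecum. None of 29 members was at least 1.5-fold different in the same direction in both Treg labels, beside 0.528% of 14207 genes higher and 0.0563% lower in the tumor. Among these 29, which passed in both Treg labels, TACI leaned most to the tumor by the smaller of its 2 ratios. TACI had 60.5 FPM in the tumor and 35.9 in the cecum for IL-10+ Treg, at 0.75 (0.45 to 1.06), and 58.6 and 43.3 for IL-10- Treg, at 0.43 (0.14 to 0.74). Of its 9 tiles with enough fragments, 5 were higher in the tumor in both labels and 0 lower, with the largest ratio at chr11:61123001-61123500, 9.53 against 2.10 and 7.23 against 1.67 FPM. The CD30 ligand leaned the other way, with 63.4 against 85.3 FPM at -0.43 (-0.69 to -0.17) in IL-10+ Treg and 34.5 against 51.3 at -0.58 (-0.89 to -0.26) in IL-10- Treg. OX40, 4-1BB and GITR had log2 ratios between -0.13 and 0.25 in the Treg labels. Over all 16 labels, 16 members passed in every label, and 0 of them were higher, and 0 lower, in the tumor in all 16, beside 0.0371% higher and 0.099% lower of the 8078 genes that passed in every label. The median gene was higher in the tumor in 7 labels. 4-1BB was lower in the tumor in 13 of 16 labels, Tnfrsf1a in 12 of the 15 in which it passed, and Tnf was higher in 12 of 16. These shifts were small, with median log2 ratios of FPM + 1 over these labels of -0.05, -0.13 and 0.04. All labels of a tissue come from 1 library, so the labels do not count as repeats.

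PD1+ CD4 cells, which the tumor library held almost alone, were compared with the newly activated CD4 cells of the same library, so 1.5-fold in 1 library was the whole call. Of 31 members 5 were higher and 5 lower, beside 8.95% and 3.9% of 14958 genes. The OX40 ligand Tnfsf4 was furthest apart, with 41.7 against 10.0 FPM from 256 against 30 fragments, at 2.06 (1.51 to 2.65), and it kept the call under all 11 alternatives. Its tile at chr1:161395001-161395500 had 13.5 FPM in PD1+ CD4 cells and 1.95 in the other tumor labels together, whose highest single label was Tfh-like with 7.13. OX40 itself had 83.0 against 60.4 FPM, at 0.46 (0.21 to 0.71), 4-1BB had 232 against 194 and GITR 153 against 152.

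The other members higher in PD1+ CD4 cells were TACI with 34.7 against 15.7 FPM, at 1.14 (0.68 to 1.63), TL1A with 7.65 against 3.67, TRAIL with 118 against 61.1 and CD30 with 179 against 106. TL1A rests on few fragments and kept the call under 5 of 11 alternatives, and CD30 kept it under 8, losing it within 1 kb of gene ends, with 50 kb on each side and at 2-fold. With 179 FPM, CD30 was more open in PD1+ CD4 cells than in either Treg label of the tumor, which had 160 and 154. All 5 lower members are receptors, and 4 of them lie in the TRAIL and RANK group: Tnfrsf10b with 20.3 against 57.7 FPM, at -1.50 (-1.85 to -1.16), Tnfrsf26 with 47.7 against 101, Tnfrsf22 with 28.8 against 56.4 and Tnfrsf23 with 20 against 36.0. Tnfrsf22, Tnfrsf23 and Tnfrsf26 are neighbours on chromosome 7, and the windows of Tnfrsf22 and Tnfrsf26 overlap. TROY was lower too, with 10.6 against 21.0 FPM. Within 1 kb of gene ends the log2 ratios of TACI (Tnfrsf13b), TRAIL (Tnfsf10) and Tnfrsf10b were -0.11, -0.21 and 0.01, so these calls rest on fragments further from the ends. Tnfrsf22 and Tnfrsf26 also lost the call within 1 kb of gene ends. At 2-fold the calls of Tnfrsf22, Tnfrsf23, TROY and TRAIL were lost too.

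Fragments of PD1+ CD4 cells fell less often near gene ends (38.8%) than those of any other label (up to 45.9%). Scaled to fragments near gene ends, the median log2 ratio of all genes moved from -0.09 to 0.11, a shift of 0.20, and 14 of the 31 members were called, 9 higher and 5 lower, beside 14.3% and 1.81% of all genes under that scaling. All 10 members called before were among the 14, in the same direction. Of the epithelial genes that passed 1 of 4 was called, Vil1, with 22.8 against 13.0 FPM, and the epithelial sum was 132 against 123 FPM. The part of either in the result was not tested.

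The signalling genes behind the receptors were counted as a fixed list of 35, the TRAF adaptors, NF-kappaB subunits and inhibitors, kinases of that pathway and death domain proteins. All 35 passed in every comparison, and 0 were called in Treg against conventional CD4 cells, between the Treg subsets, between the CD8 labels or between the tissues. In PD1+ CD4 cells 3 of the 35 (8.57%) were called higher and 0 lower, a share close to the 8.95% of all genes called higher there. They were Nfkb1, an NF-kappaB subunit, with 412 against 261 FPM, at 0.66, the subunit gene Rel with 204 against 129, at 0.66, and Tab2, an adaptor of the kinase TAK1, with 141 against 87.1, at 0.69. Of the 12 superfamily members with other symbols 9 passed there and 4 were higher: Cd70, the ligand of CD27, with 27.7 against 4.00 FPM from 170 against 12 fragments, at 2.79, the death receptor gene Fas with 99.6 against 64.1, its ligand Fasl with 51.0 against 30.7, and Eda, the ectodysplasin ligand, with 7.65 against 3.0. None of the 7 that passed was called between the CD8 labels or between the tissues.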

How the data were processed

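T cells sorted from AKP tumors and from the cecum beside them were profiled by 10x multiome, with 1 ATAC library for each tissue. The RNA counts were not analysed here. According to the submitters' processing notes the authors used Cell Ranger ARC 2.0.0 and mm10. The deposited files hold raw counts, 1 line for each unique fragment with its barcode and read pairs, neither normalized nor filtered, with 4.29 (cecum) and 3.11 (tumor) read pairs behind each fragment. The authors filtered the cells, clustered their RNA and carried the labels over to the ATAC data. Removal of doublets is not described in the sources used here, and none were called. No per-sample column was left unused.

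A fragment on chromosomes 1 to 19, X or Y counted once in a window that held either of its ends, and the counts of a label's cells were added and scaled to 1000000 fragments of that label. Gene spans and promoters came from RefSeq tables of GRCm38.p6, without exons, so that exons, introns and UTRs are not distinguished. Printed log2 ratios are of raw counts over totals, and a pseudocount of 1 FPM entered the calls alone. Labels needed 50 cells, windows 50 fragments, tiles and promoter windows 20 fragments over both sides in each library, and tiles picked for a leading label also 5 fragments of that label. Intervals are exact binomial or Poisson ones, and PCR duplicates had been collapsed. The scripts were tested on simulated data. Alternatives changed the cells kept (at least 1000 fragments, or none above 3 times the library median), the window (span alone, 1 kb around gene ends, 50 kb on each side), scaling, averaging, label weights, pseudocount (5 FPM), fold (2-fold) and fragment minimum (none or 200).

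Named were OX40, 4-1BB and GITR, every called member, the highest and lowest member per kb of each role group, members with the same leading label in both libraries, and the richest and most uneven tile of the markers and of members called in Treg. Other named members, the promoter windows, the tiles of other comparisons and some alternatives for called members were chosen after seeing the data. The members and gene lists were chosen with earlier results of these data known. Python 3.11.15, numpy 2.4.6, scipy 1.17.1, pandas 2.3.3, numba 0.67.0, pyarrow 21.0.0 and matplotlib 3.10.9 were used.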

Additional observations from a re-analysis of the deposited data

Results flagged for a closer look

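Altogether 3 members had log2 ratios whose intervals lay on opposite sides of 0 in the cecum and the tumor. The difference between the tissues was not tested, since each has 1 library. Tnfrsf25, the receptor of TL1A, was 0.27 (0.14 to 0.40) in Treg over conventional CD4 cells of the cecum, with 107 against 88.8 FPM, and -0.16 (-0.29 to -0.03) in the tumor, with 107 against 119. The conventional class is a sum over labels whose shares differed: Mucosal Th1 gave 50.4% of it in fragments for the cecum and 15.5% for the tumor, newly activated CD4 4.08% and 35.8%. Within labels Tnfrsf25 had 89.1 and 85.7 FPM in Mucosal Th1, 123 in Th2 of both libraries, and 60.9 and 129 in newly activated CD4. Th17, with 138 FPM in the tumor, gave 8.32% of the class in the cecum and 28.0% in the tumor. The part of the mix in the difference was not tested. Over all genes, 1.0% of the 15869 that passed there were opposite in this way.

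In PD1+ CD8 over Cytotoxic CD8 cells, OX40 (Tnfrsf4) was 0.57 (0.11 to 1.03) in the cecum, with 29.7 against 20.1 FPM, and -0.37 (-0.71 to -0.02) in the tumor, with 22.7 against 29.3. LIGHT (Tnfsf14) was 0.43 (0.08 to 0.79) in the cecum, with 46.6 against 34.5 FPM, and -0.27 (-0.52 to -0.02) in the tumor, with 44.0 against 53.3. Over all genes, 0.27% of 14445 were opposite between the libraries in that comparison. In IL-10+ over IL-10- Treg the share was 0.264%, and 0 members were among them.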

How the results depend on the processing

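No paired analysis was possible because each tissue has 1 library, which also leaves no replicate to leave out. Members with the same leading label numbered 10 to 19 over 10 alternatives, against 15. Treg calls (3) ran from 0 to 4 over 12 alternatives, with 0 at 2-fold. Calls between the Treg subsets (4) ran from 2 to 5 over 11, with 2 within 1 kb of gene ends, at 2-fold and at a minimum of 200 fragments. The 1 CD8 call became 0 without cells above 3 times the median, with 50 kb on each side, a pseudocount of 5, 2-fold or a minimum of 200, and 2 for the span alone (Tnfrsf23 and Tnfrsf1a) or within 1 kb of gene ends (Tnfrsf26 and Tnfsf13b, without Tnfrsf23). Calls between the tissues stayed at 0. PD1+ CD4 calls (10) ran from 4 to 14, with 4 within 1 kb of gene ends and at 2-fold. Of 268 log2 ratios of single members under alternatives, 224 moved less than their interval, 39 moved further and 5 changed sign: Tnfsf13b between the Treg subsets of the tumor with 50 kb on each side (0.055), and in PD1+ CD4 cells Tnfrsf10b (0.014), Tnfrsf13b (-0.11) and Tnfsf10 (-0.21) within 1 kb of gene ends and Tnfrsf13b (-0.15) with 50 kb. The cause was not tested. Members with few fragments, such as Tnfrsf11b, Tnfsf15 and Tnfsf18, could not be ordered over labels at this depth.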
